A study of Sus scrofa with 6 samples.

Results

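Accessible chromatin around the 4 myogenic regulatory factor genes was followed through early muscle formation in pig embryos with single-cell ATAC-seq, in which a transposase cuts DNA that is not packed away and a barcode tells from which droplet each cut came. Members were the accessible regions that overlapped the body of MYF5, MYF6, MYOD1 or MYOG, or the 60 kb on either side of it, in the Sscrofa11.1 assembly. A region was a set of peaks of the 6 libraries merged wherever they overlapped by at least 1 bp. In this way 78 of the 294825 regions of the series became members, built from 319 of its 1047483 peaks. The MYF5, MYF6 and MYOD1 windows held 25 regions each and the MYOG window held 26, and 23 regions lay in both the MYF5 and the MYF6 window. A peak was called in all 6 libraries in 29 member regions (9 in the MYF5 window, 7 in the MYF6 window, 7 in the MYOD1 window and 13 in the MYOG window), and only these entered the tests, as did the 78533 such regions of the whole series.

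The libraries covered 3 stages and 2 breeds, with 1 library for each combination. Stages were embryonic days 18, 21 and 28, written E18, E21 and E28. The tissue was the somite, the segment of mesoderm that gives rise to trunk muscle, at E18 and E21, and the myotome, its muscle-forming layer, at E28. Embryos were either Tibetan pigs (ZZ) or Duroc × Tibetan crosses (DZ). A library was a mixture of 5 embryos taken from 1 sow, so litter and library are the same thing and the spread between embryos was not measured. No combination of stage and breed had a replicate: in the tests the 2 libraries of a stage stood as its replicates and the 3 libraries of a breed as its replicates, and p-values measure the spread between these libraries alone. Tissue and stage cannot be told apart at E28.

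Barcodes with 2000 to 30000 counts were used, 58809 of 64439 in all and 9286 to 11243 in a library, with 89816504 to 133037579 counts a library and medians of 8084.5 to 11452 counts per barcode. Any 2 libraries had 113 to 157 barcode sequences in common (1.22% to 1.66% of the smaller library). Peaks had been called in each library on its own and were fewer at later stages, from 217138 and 199846 at E18 (ZZ and DZ) to 131975 and 137769 at E28, and counts exist only inside a library's own peaks. Where a library had no peak in a region, its value is therefore missing and is not a level of 0. Levels are given as CPM, the counts of a region relative to the library's total in the regions shared by all libraries, with edgeR's TMM factor (CPM as edgeR defines it). All 9 myogenic markers, which include the 4 genes themselves with PAX3, PAX7, DES, CDH15 and CHRNA1, had a promoter peak in every library, and their summed promoter level was 212 to 237 CPM at E18 and E21, 219 CPM in E28 ZZ and 312 CPM in E28 DZ. Pairs of values below give ZZ first and DZ second.

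The myogenic regulatory factors are basic helix-loop-helix transcription factors that pair with E proteins such as TCF3 and bind the E-box, a short palindromic DNA motif found at muscle genes. MYF5, MYF6 and MYOD1 can set mesodermal cells on the path to muscle, while MYOG drives myoblasts to differentiate and fuse. In mouse, Myf5 and Myf6 sit side by side and share a long array of enhancers, MyoD has a core enhancer and a distal regulatory region upstream of its promoter, and the compact Myog promoter is known for E-box, MEF2 and MEF3 sites. No alignment between these mouse elements and the pig regions was made, and the pig regions are named here by their distance from a gene start.

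All 4 genes lie on the minus strand, MYF5 at chr5:100753440-100755558, MYF6 at chr5:100762918-100764771, MYOD1 at chr2:41422522-41424236 and MYOG at chr9:113783233-113785312 (RefSeq genes on Sscrofa11.1). The promoter sequences below run from 250 bases before to 50 bases after each start, on the minus strand, at chr5:100755509-100755808 for MYF5, chr5:100764722-100765021 for MYF6, chr2:41424187-41424486 for MYOD1 and chr9:113785263-113785562 for MYOG. They are shown because the promoters are the anchor of every comparison that follows. Capitals mark E-boxes (CANNTG), the MEF3 motif (TCAGGTT) and the MEF2 motif (YTAWWWWTAR), all searched on both strands. In these patterns N is any base, Y is C or T, W is A or T, and R is A or G. The letters hold CAGCTG and CAGGTG at MYF5, MEF2 and 1 E-box at MYF6, 1 CAGCTG at MYOD1, and MEF3 and 1 E-box at MYOG. At MYOG the stretch ctatatttat departs from the MEF2 pattern at its last base alone and is therefore not in capitals.
MYF5 promoter: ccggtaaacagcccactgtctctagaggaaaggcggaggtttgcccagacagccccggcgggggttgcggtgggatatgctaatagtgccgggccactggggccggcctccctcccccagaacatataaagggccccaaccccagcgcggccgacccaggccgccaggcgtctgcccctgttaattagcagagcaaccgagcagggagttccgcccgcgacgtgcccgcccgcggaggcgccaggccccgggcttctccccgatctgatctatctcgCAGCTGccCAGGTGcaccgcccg
MYF6 promoter: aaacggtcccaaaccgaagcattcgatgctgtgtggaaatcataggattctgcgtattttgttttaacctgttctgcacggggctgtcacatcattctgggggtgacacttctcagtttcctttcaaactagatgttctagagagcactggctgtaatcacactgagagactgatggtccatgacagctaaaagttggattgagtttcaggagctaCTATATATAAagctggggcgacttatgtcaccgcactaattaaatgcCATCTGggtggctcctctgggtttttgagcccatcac
MYOD1 promoter: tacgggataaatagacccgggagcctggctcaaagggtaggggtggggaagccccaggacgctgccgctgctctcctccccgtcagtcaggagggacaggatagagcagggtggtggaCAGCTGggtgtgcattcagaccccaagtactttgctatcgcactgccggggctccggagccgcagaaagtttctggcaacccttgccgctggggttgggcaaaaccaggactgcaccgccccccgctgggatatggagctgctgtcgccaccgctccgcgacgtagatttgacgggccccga
MYOG promoter: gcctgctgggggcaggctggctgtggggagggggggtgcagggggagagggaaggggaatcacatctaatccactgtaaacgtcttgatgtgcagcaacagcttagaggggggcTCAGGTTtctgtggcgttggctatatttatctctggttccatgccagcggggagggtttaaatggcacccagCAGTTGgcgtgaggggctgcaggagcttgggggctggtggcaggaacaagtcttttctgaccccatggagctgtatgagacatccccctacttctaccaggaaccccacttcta

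The flanking sequences below are 300 bases of each of 7 regions, on the minus strand as are the genes. They lie at the centre of the bases that the most libraries shared. They are shown because these regions lacked a peak in at least 1 E18 library or were called higher at E28, and opened in the same barcodes as the promoters. From 5.1, 8.9, 22.0 and 35.0 kb upstream of MYOD1 come chr2:41429142-41429441, chr2:41433004-41433303, chr2:41446041-41446340 and chr2:41459134-41459433. From 15.1 and 17.5 kb upstream of MYF5 come chr5:100770545-100770844 and chr5:100772949-100773248, and from 20.4 kb downstream of MYOG comes chr9:113764779-113765078. Capitals have the same meaning. The MYOD1 region at 8.9 kb and the MYF5 region at 15.1 kb hold 5 E-boxes each, and the MYOD1 region at 22.0 kb holds 2, both CAGCTG.
MYOD1 5.1 kb upstream: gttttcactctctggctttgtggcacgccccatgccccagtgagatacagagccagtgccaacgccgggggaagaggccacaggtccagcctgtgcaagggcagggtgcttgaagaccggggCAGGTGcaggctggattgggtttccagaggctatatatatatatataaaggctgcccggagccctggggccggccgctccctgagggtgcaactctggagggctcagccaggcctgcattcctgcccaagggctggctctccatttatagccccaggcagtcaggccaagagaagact
MYOD1 8.9 kb upstream: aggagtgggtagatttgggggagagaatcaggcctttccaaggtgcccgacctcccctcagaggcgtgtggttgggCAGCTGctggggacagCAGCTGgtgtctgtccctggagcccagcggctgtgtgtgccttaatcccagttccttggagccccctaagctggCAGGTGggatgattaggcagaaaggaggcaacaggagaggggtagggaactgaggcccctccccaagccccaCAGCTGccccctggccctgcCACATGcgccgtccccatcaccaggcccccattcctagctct
MYOD1 22.0 kb upstream: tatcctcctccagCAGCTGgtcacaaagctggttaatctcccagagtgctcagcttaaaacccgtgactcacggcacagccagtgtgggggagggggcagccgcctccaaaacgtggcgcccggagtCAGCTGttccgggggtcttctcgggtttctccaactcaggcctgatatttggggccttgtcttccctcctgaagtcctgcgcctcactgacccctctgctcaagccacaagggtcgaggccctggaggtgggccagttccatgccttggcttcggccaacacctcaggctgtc
MYOD1 35.0 kb upstream: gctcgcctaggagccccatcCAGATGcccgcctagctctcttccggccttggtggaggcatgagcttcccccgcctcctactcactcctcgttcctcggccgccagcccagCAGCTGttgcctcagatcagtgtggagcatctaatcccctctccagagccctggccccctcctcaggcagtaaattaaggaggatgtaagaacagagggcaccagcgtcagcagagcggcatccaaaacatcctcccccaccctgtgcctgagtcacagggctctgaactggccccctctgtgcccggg
MYF5 15.1 kb upstream: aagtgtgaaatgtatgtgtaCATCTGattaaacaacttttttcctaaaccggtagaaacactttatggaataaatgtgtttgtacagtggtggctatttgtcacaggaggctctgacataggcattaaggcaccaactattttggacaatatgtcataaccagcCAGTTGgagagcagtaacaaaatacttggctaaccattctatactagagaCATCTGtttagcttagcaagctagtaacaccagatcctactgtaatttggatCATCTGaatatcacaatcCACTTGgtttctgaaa
MYF5 17.5 kb upstream: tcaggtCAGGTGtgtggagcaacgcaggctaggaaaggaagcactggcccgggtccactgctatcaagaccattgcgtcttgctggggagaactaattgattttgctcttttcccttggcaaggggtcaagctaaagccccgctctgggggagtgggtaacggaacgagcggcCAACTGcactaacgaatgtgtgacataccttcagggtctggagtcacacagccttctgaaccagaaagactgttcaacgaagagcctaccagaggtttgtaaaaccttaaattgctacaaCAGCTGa
MYOG 20.4 kb downstream: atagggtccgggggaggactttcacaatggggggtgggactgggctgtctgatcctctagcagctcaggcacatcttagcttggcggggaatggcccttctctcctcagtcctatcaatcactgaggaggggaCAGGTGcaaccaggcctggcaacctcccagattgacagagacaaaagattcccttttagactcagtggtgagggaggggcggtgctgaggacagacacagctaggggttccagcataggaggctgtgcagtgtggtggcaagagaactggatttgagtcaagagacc

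Across the 4 loci, the promoter region of MYOG opened with stage, while those of MYF5, MYF6 and MYOD1 were open at every stage with no called difference. Each of these regions also covers the gene body, wholly or in most part, so promoter and gene body were not read apart. Between E28 and E18, 9 of the 29 tested member regions passed the threshold of an adjusted p under 0.05 (edgeR's quasi-likelihood test with Benjamini-Hochberg adjustment over 78533 regions), which is 31.0% of members against 37.1% of all tested regions. Of these, 8 were higher at E28 (27.6% of members, against 19% of all regions) and 1 was lower (18.1% of all regions). The median log2 fold change was 0.31 over the members and −0.02 over all regions. The MYOG window held 7 of the 9 (6 higher and 1 lower) and the stretch around MYF5 and MYF6 held 2, both higher. None of the 7 tested regions around MYOD1 passed with edgeR, none had an unadjusted p under 0.05, and DESeq2 also called 0 of them. Over all 78533 tested regions, 38178 had an unadjusted p under 0.05 with edgeR, and DESeq2 called 43.2%. Covered length, depth and the makeup of the tissue also moved with stage, and their part in these differences was not tested.

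**Figure D1:**
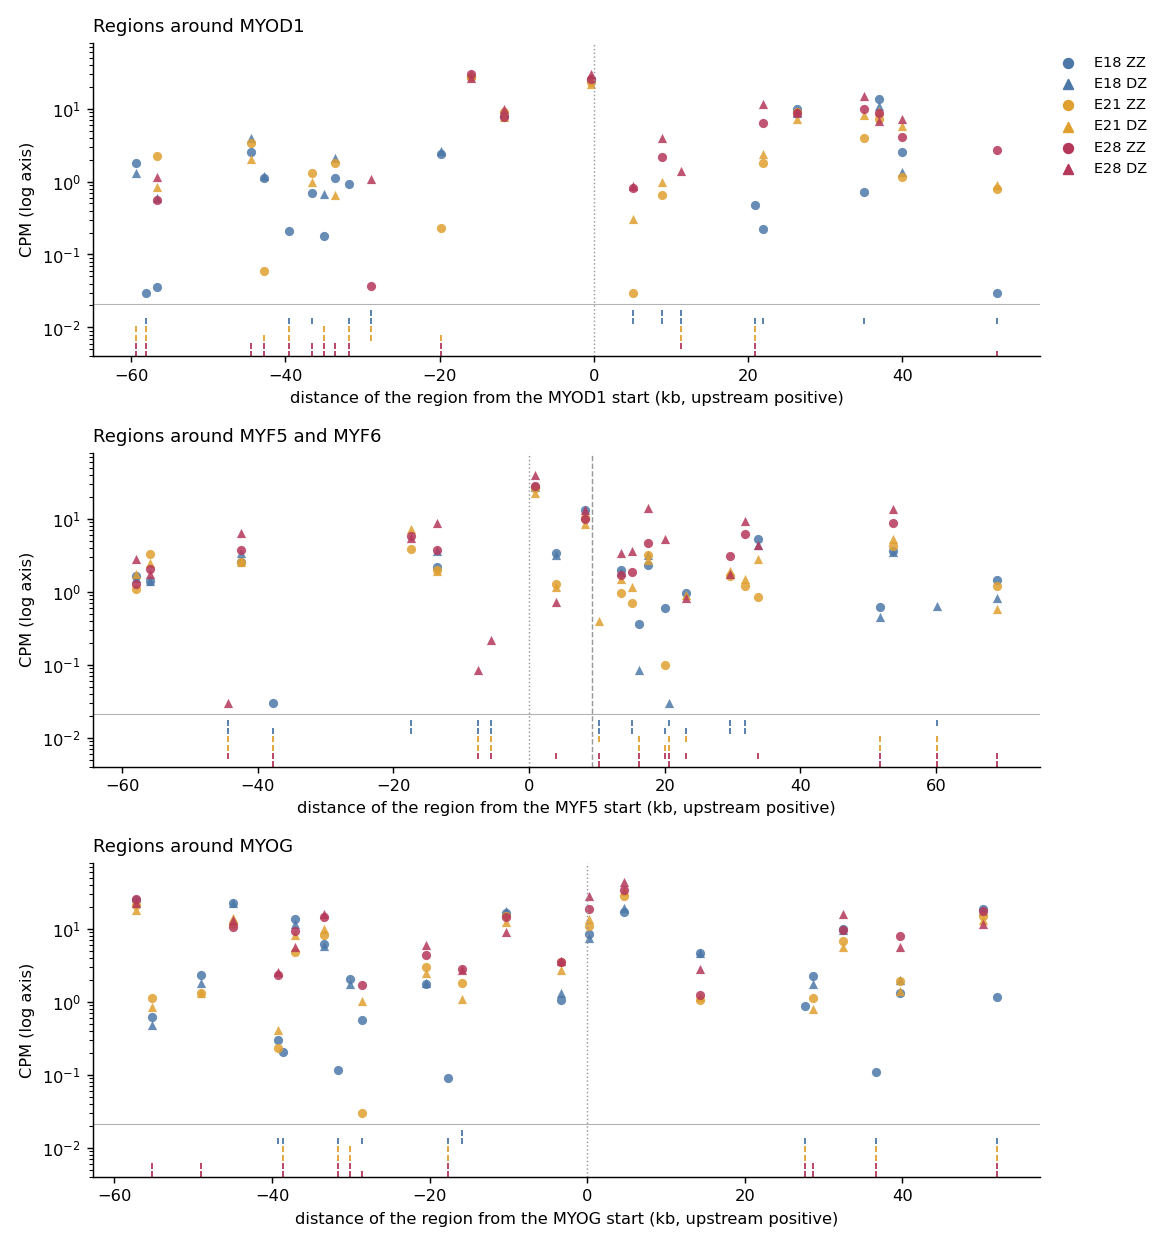
Level of every member region (CPM, log axis) by distance from the start of MYOD1, MYF5 or MYOG (kb, upstream positive; dotted line, start of the gene; dashed line, start of MYF6), with circles for ZZ, triangles for DZ and colours for stage. Ticks under the line mark libraries without a peak in that region, and values below the axis range are drawn at its lower edge; upstream of MYOD1 the E28 points at 22.0 and 35.0 kb sit at 6.32 to 14.7 CPM while E18 DZ has no peak there.

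MYOG encodes myogenin, the factor of terminal differentiation. Its promoter region (chr9:113782863-113786127, over the whole gene) had 8.58 and 7.41 CPM at E18, 10.8 and 13.5 CPM at E21, and 18.7 and 27.8 CPM at E28. Both E28 libraries were above both E21 libraries, and those above both E18 libraries, so no stages overlapped. The log2 fold change was 1.51 ± 0.24 (SE) at E28 against E18 with an edgeR adjusted p of 0.0076, and the call was lost without E18 DZ (1.19, edgeR adjusted p = 0.0561). The step from E18 to E21 (0.58, edgeR adjusted p = 0.18) and the step from E21 to E28 (0.93, edgeR adjusted p = 0.071) did not pass on their own.

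In barcodes thinned to 2000 fragment units, the MYOG promoter was open in 1.26% and 1.13% of barcodes of E18, 1.81% and 2.29% of those of E21, and 2.90% and 4.10% of those of E28. The exact 95% binomial intervals, which cover counting error alone, were 1.06% to 1.48% for E18 ZZ and 0.929% to 1.36% for E18 DZ, so these neighbours in the order do not differ beyond counting error. The interval of E21 ZZ (1.54% to 2.12%) overlapped that of E21 DZ (1.98% to 2.64%), which overlapped that of E28 ZZ (2.55% to 3.29%). That of E28 DZ ran from 3.67% to 4.56% and lay above all others. Without thinning, the share was 4.06% and 3.87% for E18, 5.29% and 5.46% for E21, and 6.83% and 9.82% for E28. Thinning left out the shallower barcodes, which were 3.74% (ZZ) and 5.21% (DZ) of barcodes in the E18 libraries, 6.13% and 12.8% in those of E21, and 14.7% and 16.3% in those of E28. In sums over barcodes, more barcodes of one kind and more openness per barcode cannot be told apart.

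MYF5 is the first of the family to be switched on in mouse somites. Its promoter region (chr5:100753620-100758670, over most of the gene) had 27.0 and 27.2 CPM at E18, 26.1 and 22.6 CPM at E21, and 28.1 and 39.4 CPM at E28. The stages did not overlap, with E21 lowest and E28 highest, but 5 libraries lay within 22.6 to 28.1 CPM and E28 DZ stood above them. The log2 fold change at E28 against E18 was 0.31 ± 0.19 (SE) with an edgeR adjusted p of 0.24, and without E28 DZ it was −0.0017. It passed without E28 ZZ (0.59, edgeR adjusted p = 0.0197) and with covered length as an offset (0.42, edgeR adjusted p = 0.0194). At equal depth the share of barcodes open was 4.54% and 4.39% for E18, 4.46% and 3.46% for E21, and 4.34% and 5.73% for E28, and only the intervals of E21 DZ (3.07% to 3.88%) and E28 DZ (5.22% to 6.26%) lay apart from the rest.

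MYOD1 encodes the factor that can turn fibroblasts into muscle cells in culture. Its promoter region (chr2:41421437-41425163, over the whole gene) had 24.7 and 26.1 CPM at E18, 22.8 and 21.7 CPM at E21, and 25.3 and 29.9 CPM at E28. E21 was lowest in both breeds, and E18 and E28 overlapped. At equal depth it was open in 4.14% and 4.17% of barcodes of E18, 3.64% and 3.02% of those of E21, and 4.07% and 4.64% of those of E28. The log2 fold change at E28 against E18 was 0.12 ± 0.14 (SE) with an edgeR adjusted p of 0.53.

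MYF6, also called MRF4, acts both early in the myotome and late in muscle fibres. Its promoter region (chr5:100761603-100765039, over the whole gene) had 13.2 and 11.3 CPM at E18, 10.1 and 8.34 CPM at E21, and 9.77 and 13.3 CPM at E28. At equal depth it was open in 2.16% and 1.75% of barcodes of E18, 1.81% and 1.47% of those of E21, and 1.66% and 2.17% of those of E28. The stages overlapped, and the log2 fold change at E28 against E18 was −0.08 ± 0.26 (SE) with an edgeR adjusted p of 0.82. Peaks there were shorter at later stages, falling in covered length from 3170 (ZZ) and 2923 bp (DZ) to 1355 and 2340 bp between E18 and E28, and with covered length as an offset the value turned to 0.68 (edgeR adjusted p = 0.013). An exon of LOC110260827, an unnamed gene model on the opposite strand that spans the whole MYF5 and MYF6 locus, also overlaps this region.

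Other promoters inside the windows served as neighbours for comparison. The promoter of KCNC1, a voltage-gated potassium channel gene downstream of MYOD1, had 26.4 to 30.0 CPM in the 6 libraries. The promoter of PPFIA4, which encodes a liprin of synapses and lies downstream of MYOG, had 18.4 to 25.9 CPM, and that of ADORA1, an adenosine receptor gene upstream of MYOG, had 11.5 to 18.8 CPM. None of the 3 passed between E28 and E18 (log2 fold changes of −0.02, 0.02 and −0.35; lowest edgeR adjusted p = 0.21).

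**Figure D2:**
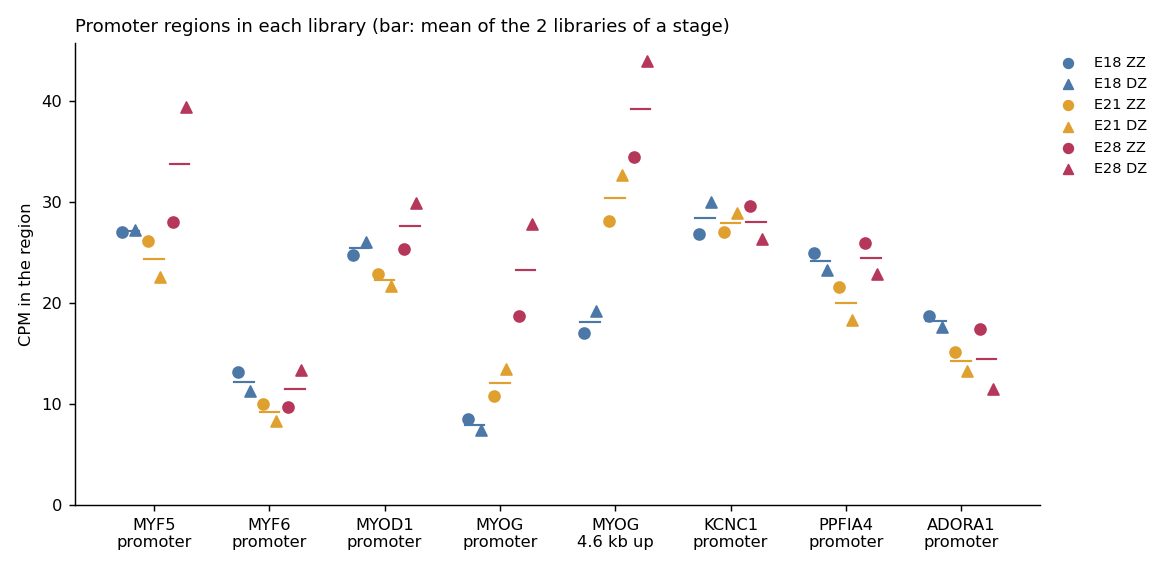
Level of 7 promoter regions and the region 4.6 kb upstream of MYOG (CPM) in each of the 6 libraries, with circles for ZZ, triangles for DZ, colours for stage and a bar at the mean of the 2 libraries of a stage. The MYOG points climb from 7.41 at the lowest to 27.8 CPM at the highest without overlap between stages, and no other promoter rises from E18 through E21 to E28 without overlap.

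Flanking the MYOG promoter, the region 4.6 kb upstream (chr9:113788720-113791696, between genes) had 17.0 and 19.2 CPM at E18, 28.2 and 32.7 CPM at E21, and 34.5 and 43.9 CPM at E28. The stages did not overlap, and the order of the libraries was that of the MYOG promoter except that E18 DZ was above E18 ZZ. The log2 fold change was 1.11 ± 0.12 (SE) at E28 against E18 (edgeR adjusted p = 0.0033), which held under all 15 alternative settings read for it. Matching peaks at 50% reciprocal overlap was not among these 15.

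This upstream region was also 1 of only 2 member regions called between E21 and E18 (6.9% of members, against 6.59% of all tested regions, of which 4.8% were higher and 1.78% lower), with a log2 fold change of 0.75 and an edgeR adjusted p of 0.030. The other was 14.3 kb upstream of MYOG and lower at E21. It had 4.69 CPM in both E18 libraries, 1.05 and 1.18 CPM at E21, and 1.24 and 2.81 CPM at E28 (log2 fold change −2.08 at E21 against E18, edgeR adjusted p = 0.048). Its peaks also shrank, from 1550 and 1080 bp at E18 to 391 and 462 bp at E21, and with covered length as an offset the log2 fold change was −0.48 (edgeR adjusted p = 0.20). The call of each region was lost when any of the 4 E18 and E21 libraries was left out (log2 fold changes of 0.69 to 0.80 and of −2.39 to −1.71).

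Downstream of MYOG, 4 regions passed between E28 and E18, 3 of them higher inside PPFIA4 or beside MYOG and holding E18 and E28 levels that did not overlap. The region 20.4 kb downstream, in a PPFIA4 intron (chr9:113764643-113765228), had 1.76 and 1.81 CPM at E18, 2.98 and 2.5 CPM at E21, and 4.33 and 6.03 CPM at E28 (1.53 ± 0.34 SE on the log2 scale, edgeR adjusted p = 0.019). This call was lost without E18 ZZ (edgeR adjusted p = 0.0973), without E18 DZ (0.149), without E28 DZ (0.0679) and with all regions fitted (0.0722). The region 33.4 kb downstream, over a PPFIA4 coding exon, had 6.25 and 5.81 CPM at E18, 8.26 and 10.1 CPM at E21, and 14.4 and 16.2 CPM at E28 (1.34 ± 0.22 SE, edgeR adjusted p = 0.0082, and 0.0869 without E18 DZ). The stages again stood in the order E18, E21, E28 in both regions.

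A region 3.3 kb downstream of the MYOG start, just past the end of the gene, had 1.04 and 1.34 CPM at E18 and 2.76 to 3.66 CPM in the 4 later libraries (1.59 ± 0.36 SE at E28 against E18, edgeR adjusted p = 0.020). The call was lost without E18 ZZ (edgeR adjusted p = 0.145), without E18 DZ (0.0968) and with all regions fitted (0.0855). Its E21 and E28 levels overlapped, unlike those of the promoter. The one region called lower at E28 was 44.9 kb downstream, over a PPFIA4 coding exon, with 23.0 and 22.8 CPM at E18, 11.8 and 14.1 CPM at E21, and 10.8 and 13.1 CPM at E28 (−0.95 ± 0.18 SE, edgeR adjusted p = 0.011). Its covered length went from 4670 (ZZ) and 4390 bp (DZ) to 1731 and 1831 bp over the same stages, and with covered length as an offset its value turned to 0.40 (edgeR adjusted p = 0.065). The call was also lost without E18 ZZ (edgeR adjusted p = 0.106) and without E18 DZ (0.0663).

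The region 39.7 kb upstream of MYOG differed in its timing. It had 1.33 and 1.99 CPM at E18, 1.96 and 1.40 CPM at E21, and 7.97 and 5.57 CPM at E28. E18 and E21 overlapped and both E28 libraries stood apart, with log2 fold changes of 2.0 ± 0.41 (SE) against E18 (edgeR adjusted p = 0.014) and 2.01 against E21 (edgeR adjusted p = 0.0435). It was the only member region called between E28 and E21 (3.45% of members, against 7.13% of all tested regions, of which 2.53% were higher), a contrast that shares its E28 libraries with the one against E18. The call against E21 was lost without E21 ZZ (edgeR adjusted p = 0.232), without E21 DZ (0.245), without E28 ZZ (0.0597) and with all regions fitted (0.126), and that against E18 without E18 ZZ (0.0925) and with all regions fitted (0.0654). With covered length as an offset the log2 fold changes were 1.1 against E18 and 1.14 against E21, both still called. At this region ZZ was above DZ at E28, the reverse of most members.

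A further region 15.9 kb downstream of MYOG (chr9:113769135-113769654, a PPFIA4 intron) had no peak in either E18 library and 1.80, 1.1, 2.84 and 2.73 CPM in the ZZ and DZ libraries of E21 and then of E28. Conversely, the region 30.1 kb downstream, over a PPFIA4 coding exon, had a peak in the E18 libraries alone (2.04 and 1.78 CPM).

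Around MYF5 and MYF6, 2 regions far from both promoters were called higher at E28. The region 17.5 kb upstream of MYF5, which is 8.3 kb upstream of MYF6 (chr5:100772501-100773551), had 2.30 and 3.16 CPM at E18, 3.22 and 2.71 CPM at E21, 4.67 CPM in E28 ZZ and 14.2 CPM in E28 DZ. A single library, E28 DZ, stood far above the rest, while E28 ZZ was the next highest. The log2 fold change was 1.68 ± 0.48 (SE, edgeR adjusted p = 0.039), and 0.83 (edgeR adjusted p = 0.19) without E28 DZ. The call was lost in 6 of 15 alternatives, the others being those without E18 ZZ (edgeR adjusted p = 0.101), E18 DZ (0.2025), E21 ZZ (0.0523) or E21 DZ (0.0514) and the fit of all regions (0.117).

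The region 53.6 kb upstream of MYF5, over a coding exon of PTPRQ, a receptor phosphatase gene, had 3.66 and 3.46 CPM at E18, 4.20 and 5.31 CPM at E21, and 8.70 and 13.4 CPM at E28. Its stages did not overlap, and the log2 fold change at E28 against E18 was 1.60 ± 0.28 (SE, edgeR adjusted p = 0.0099). With covered length as an offset it was 0.75 and still called, and without E18 DZ it was not called (edgeR adjusted p = 0.103). Of the regions not called, the one 42.5 kb downstream of MYF5 had 2.53 to 3.42 CPM at E18 and E21 and 3.70 and 6.40 CPM at E28. Between E21 and E18 and between E28 and E21, 0 of the 9 tested regions of the MYF5 window passed with edgeR, with 1 and 4 regions at an unadjusted p under 0.05, and DESeq2 called 0 and 3. Over all 78533 tested regions, edgeR called 6.59% and 7.13% in these contrasts and DESeq2 18.1% and 19.7%. An unadjusted p under 0.05 with edgeR was found in 21679 and 22663 of them.

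A set of 4 regions of this locus had peaks in both E21 and both E28 libraries and in no E18 library. The region 17.4 kb downstream of MYF5 had 3.90 and 7.30 CPM at E21 and 5.81 and 5.44 CPM at E28. The region 15.1 kb upstream (5.9 kb upstream of MYF6) had 0.703 and 1.15 CPM at E21 and 1.89 and 3.63 CPM at E28, and the region 31.8 kb upstream had 1.19 and 1.49 CPM at E21 and 6.16 and 9.19 CPM at E28. In the last 2, both E28 libraries were above both E21 libraries, which was not so at 17.4 kb downstream or at the fourth region, 29.6 kb upstream (1.66, 1.94, 3.05 and 1.74 CPM).

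Around MYOD1, the promoter region stayed level, while a string of upstream regions had a peak in E28 DZ and none in E18 DZ. This pattern rests on the DZ libraries and was picked after the values were seen, and its share over all regions was not counted. The region 35.0 kb upstream (chr2:41458585-41459629) had 0.729 CPM in E18 ZZ, no peak in E18 DZ, 3.90 and 8.13 CPM at E21, and 9.89 and 14.7 CPM at E28. The region 22.0 kb upstream (chr2:41445843-41446833) had 0.225 CPM in E18 ZZ, no peak in E18 DZ, 1.79 and 2.37 CPM at E21, and 6.32 and 11.4 CPM at E28. In both, the E28 libraries were above those of E21, and the E21 libraries above E18 ZZ, the one E18 library with a peak.

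Nearer to MYOD1, the region 8.9 kb upstream (chr2:41432861-41433420) had no peak at E18, 0.663 and 0.975 CPM at E21, and 2.16 and 3.99 CPM at E28. The region 5.1 kb upstream (chr2:41429093-41429457) had no peak at E18, 0.0301 and 0.307 CPM at E21, and 0.819 and 0.860 CPM at E28, and the region 11.3 kb upstream had a peak in E28 DZ alone (1.38 CPM). None of these 5 regions could enter the test, which required a peak in all libraries. The fit over all regions that counts a missing peak as 0 was tried as an alternative chosen after seeing the data, and it moved the median of all regions to −1.10, so no fold change is drawn from it here.

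Other regions near MYOD1 did not follow this order. Next to the region at 35.0 kb, the one 37.0 kb upstream had 13.4 and 10.8 CPM at E18 and 6.68 to 9.2 CPM later and did not pass (edgeR adjusted p = 0.25 at E21 against E18). Downstream, the region 11.7 kb away, between KCNC1 and MYOD1, had 7.56 to 9.75 CPM in all 6 libraries. The region 59.3 kb downstream, in a KCNC1 intron, had a peak at E18 alone (1.79 and 1.32 CPM) and the one 28.9 kb downstream, in the same gene, had peaks at E28 alone (0.0372 and 1.08 CPM). Several other regions downstream of MYOD1 had peaks in both E18 libraries and in neither E28 library. That pattern was seen in 13 members in all (16.7%, against 26.8% of all regions).

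**Figure D3:**
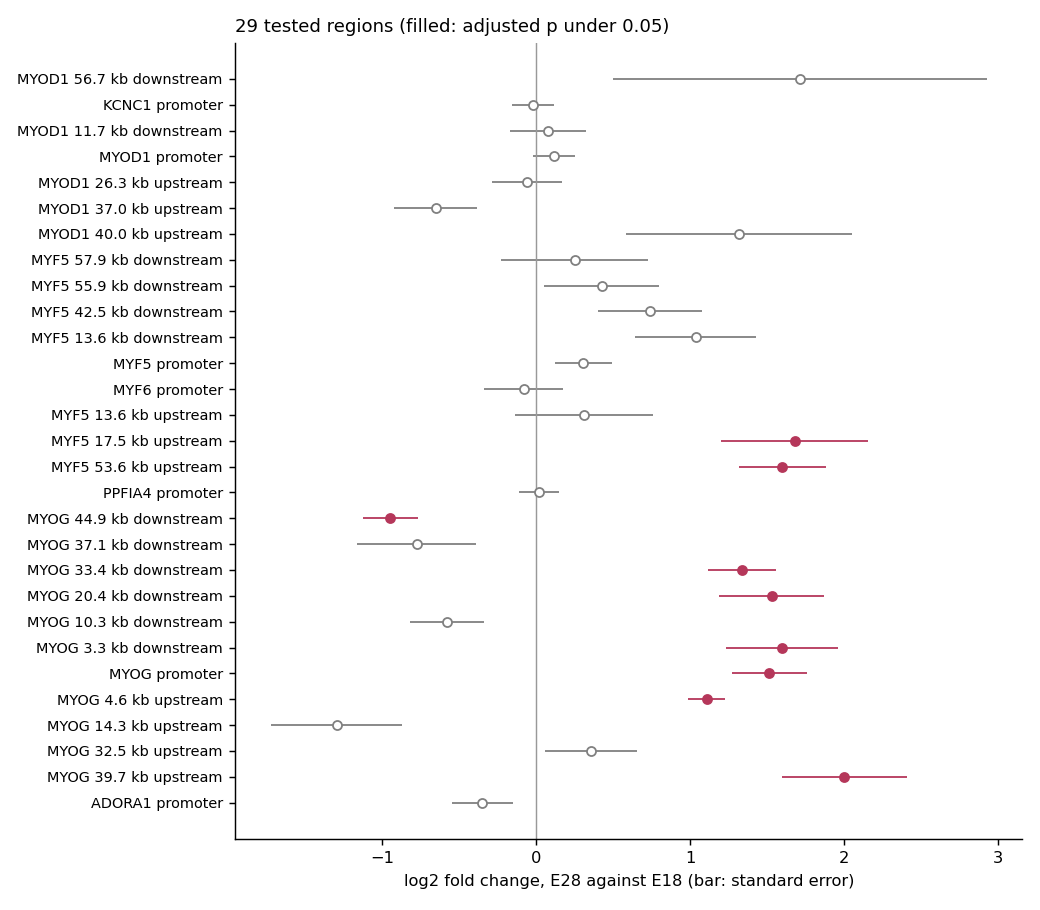
Log2 fold change of E28 against E18 (bars, standard error) for the 29 tested member regions, ordered by position within each window; filled points passed an adjusted p under 0.05 in edgeR's quasi-likelihood test. Filled points range from −0.95 at the region 44.9 kb downstream of MYOG to 2.0 at the region 39.7 kb upstream of it, and none lies around MYOD1.

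Over all 78 members, 18 had a peak in 1 library (23.1%, against 22.9% of all regions), 31 in 2 to 5 libraries (39.7% against 50.4%) and 29 in all 6 (37.2% against 26.6%). In the E18 libraries 80.8% and 59.0% of members had a peak, against 72.3% and 65.1% of all regions. In the E21 libraries the shares were 67.9% and 66.7% of members against 55.5% and 61.4%, and in the E28 libraries 53.8% and 61.5% against 41.9% and 44.2%. A peak in both E21 and both E28 libraries with none at E18 was seen in 7 members (8.97%, against 2.99% of all regions), whereas a peak in both E18 libraries with none at E28 was seen in 13 (16.7% against 26.8%). These shares are descriptions, and 17 of the 78 members lay between genes.

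Markers of other cell types moved with stage as well, and 19% of all tested regions were called higher and 18.1% lower between E28 and E18. Of 7 fibroblast and mesenchyme promoters 5 passed as higher at E28 (COL1A1, COL1A2, COL3A1, DCN and LUM), with summed levels of 289 to 305 CPM at E18 and 455 to 462 CPM at E28. All 4 epithelial promoters passed as lower (92.2 to 93.3 CPM at E18, 43.0 to 48.9 CPM at E28), as did 3 of 4 neural progenitor promoters (225 to 257 CPM at E18, 112 to 166 CPM at E28). The 6 sclerotome and cartilage promoters summed to 291 to 295 CPM at both stages, though NKX3-2 and ACAN passed as lower. Of 3 neuronal promoters with a peak, ELAVL3 and ELAVL4 passed as lower, neither of 2 neural crest promoters passed, and KDR, the one endothelial promoter tested, was lower. Of the endothelial markers TIE1 had no promoter peak in any library, and of the blood markers GATA1 and PTPRC had none. The part of cell type makeup in the differences at the 4 loci was not tested.

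Between the breeds, none of the 29 member regions passed with edgeR (DZ against ZZ, 0% of all 78533 regions called), 1 member had an unadjusted p under 0.05 (against 3879 of all regions), and DESeq2 called 0 members and 159 regions in all. At the region 17.5 kb upstream of MYF5, DZ was 3.04 times ZZ at E28, 1.37 times at E18 and 0.839 times at E21. The MYOG promoter in DZ was 0.863 times ZZ at E18, 1.24 times at E21 and 1.49 times at E28, and the MYF5 promoter 1.01, 0.865 and 1.40 times. Ratios above these were found at the region 56.7 kb downstream of MYOD1 (16.6 times at E18, from 0.036 CPM in ZZ and 0.598 CPM in DZ) and the region 40.0 kb upstream of it (5.04 times at E21). With 1 library on each side these ratios have no replicate check and no test.

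At E28, 21 of the 29 members were higher in DZ (72.4%, against 53.5% of all shared regions), with a median log2 ratio of 0.35, against 0.04 over all shared regions. At E18 the count was 15 (51.7%, against 48.2%; median 0.00) and at E21 it was 12 (41.4%, against 49.6%; median −0.08). The fitted log2 difference of DZ against ZZ over the 3 stages was 0.23 ± 0.19 (SE) for the MYOG promoter, 0.10 ± 0.15 for MYF5, 0.08 ± 0.11 for MYOD1 and −0.01 ± 0.21 for MYF6. The 5 myogenic markers other than the 4 factors (PAX3, PAX7, DES, CDH15 and CHRNA1) also summed to more in DZ at E28 (137 CPM in ZZ and 202 CPM in DZ), as did the neural progenitor (112 and 166 CPM) and neural crest markers (49.3 and 65.7 CPM), while the fibroblast and mesenchyme sum did not (462 and 455 CPM). The part of cell type makeup in these ratios was not tested.

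Co-opening in the same barcode was next described as the number of barcodes open at both regions over the number expected from each library's depth, taken within 10 depth classes. A ratio of 1 means no more overlap than depth gives. Barcodes are not replicates, so no p is given, and over all shared regions farther than 60 kb away the median ratio with a promoter was 0.98 to 1.01. Among the promoters, MYOG opened together with MYF5 at 1.61 (878 barcodes observed, 546 expected) and with MYOD1 at 1.57 (770 observed, 489 expected). The ratio was 1.28 for MYF5 with MYOD1, 1.29 for MYF5 with its neighbour MYF6, 1.3 for MYF6 with MYOG and 1.12 for MYF6 with MYOD1. These pairs did not stand at the top of the genome, since 5861 of 78366 ranked regions had a higher ratio with MYOG than the MYF5 promoter had, and 6269 a higher one than the MYOD1 promoter had.

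In 2 of the 6 promoter pairs the ratio was larger at each later stage, with no overlap between stages. Ratios of single libraries were not summarized over all regions, so this count has no background beside it. MYOD1 and MYOG had ratios of 1.1 and 1.14 in the E18 libraries, 1.36 and 1.59 in those of E21, and 1.96 and 1.83 in those of E28. MYF5 and MYOD1 had ratios of 1.0 and 1.01 in the E18 libraries, 1.2 and 1.49 in those of E21, and 1.52 and 1.59 in those of E28. MYF5 with MYF6, in contrast, ranged from 1.15 to 1.41, with E18 and E21 overlapping and both E28 libraries (1.41 and 1.36) above the other 4, and MYF6 with MYOG was 1.3 and 1.37 at E18 against 1.37 and 1.36 at E28. Exactly 3 of the 4 promoters were open together in 34 and 46 barcodes at E18 (32.4 and 32.1 expected if they opened independently), in 51 and 66 at E21 (32.0 and 24.6 expected) and in 97 and 165 at E28 (33.0 and 68.1 expected). All 4 were open in 0 to 17 barcodes of a library.

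**Figure D4:**
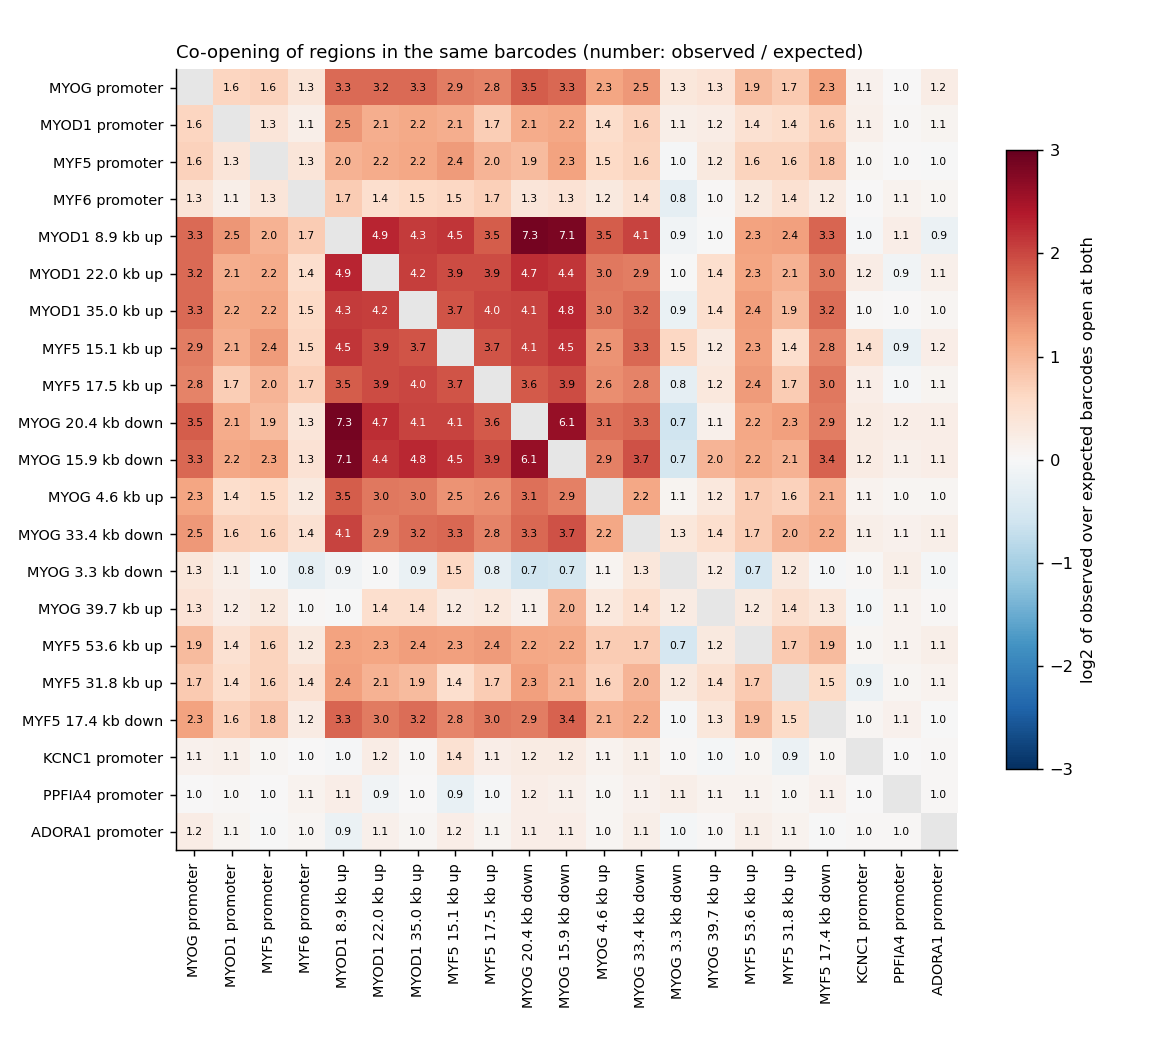
Observed over expected number of barcodes open at both regions (numbers; colour, log2 of the ratio) for the 4 promoters, 14 flanking regions and 3 neighbouring promoters, summed over libraries. The regions 3.3 kb downstream and 39.7 kb upstream of MYOG and the promoters of KCNC1, PPFIA4 and ADORA1 lie between 0.66 and 2.02 with the other regions drawn (grey, a region with itself). The other flanking regions drawn had ratios of 1.42 to 7.3 among themselves. The regions were set apart by these same ratios, and only 21 of the 78 members are drawn. Members not drawn had lower as well as higher ratios with the MYOG promoter, such as 0.53 and 2.34.

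Some distal regions had higher ratios with the promoters than the promoters had with each other, while others, such as a pair of KCNC1 intron regions with MYOG (both 0.53), did not. Regions without an E18 peak have ratios from the E21 and E28 libraries alone, whereas promoter pairs pool all 6. With the MYOG promoter, the region 20.4 kb downstream had a ratio of 3.55 (267 barcodes observed, 75.3 expected), and only 3 of 78366 ranked regions elsewhere in the genome were higher. Its ratio in the single libraries ran from 2.85 to 5.75. The MYOD1 regions at 35.0 and 22.0 kb, on another chromosome, had ratios of 3.26 (40 of 78186 regions higher) and 3.24 (47 of 78186) with the MYOG promoter, and those at 8.9 and 5.1 kb 3.27 and 3.23. Within the E28 libraries the ratio with the MYOG promoter was 3.42 and 3.29 for the region 20.4 kb downstream and 3.25 and 2.69 for the MYOD1 region at 35.0 kb, against 1.96 and 1.83 for the MYOD1 promoter. The region 15.9 kb downstream of MYOG stood at 3.31 and the MYF5 regions at 15.1 and 17.5 kb at 2.91 and 2.81.

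With the MYF5 promoter, the MYOD1 region at 11.3 kb had 2.49 on 29 barcodes of E28 DZ alone, and the region 15.1 kb upstream of MYF5 had 2.41, with 1 of 78424 ranked regions higher. The MYOD1 region at 5.1 kb had 2.39 on 42 barcodes (17.6 expected), the region 15.9 kb downstream of MYOG 2.30 and the MYOD1 region at 35.0 kb 2.24 (14 of 78511 higher). Ranked regions had at least 20 barcodes expected, so regions with fewer are given no rank here. Ratios on few barcodes vary widely. A region downstream of MYOD1, read in the E18 libraries alone, had 2.09 with MYF5 (18 barcodes, 8.59 expected) and 0.60 with MYOD1 (5 barcodes, 8.32 expected). With the MYOD1 promoter, its own region at 11.3 kb had 2.73 (25 barcodes of E28 DZ), that at 8.9 kb 2.49 (10 of 78368 higher), that at 5.1 kb 2.44 (38 barcodes) and that at 35.0 kb 2.22 (44 of 78506 higher). The MYF6 promoter had lower ratios with these regions. It had 1.91 with the MYOD1 region at 5.1 kb (14 barcodes, 7.33 expected) and 1.71 with that at 8.9 kb (140 of 73044 higher). With the region 17.5 kb upstream of MYF5 it had 1.65. Over all shared regions farther than 60 kb away, the highest ratio was also lowest for MYF6. It was 2.09, against 2.28 for MYF5, 2.35 for MYOD1 and 3.73 for MYOG.

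Distal regions were also compared with each other, over the libraries in which both have a peak. Ratios over all regions were summarized for the promoters alone, so the values for distal pairs have no background beside them. The MYOD1 region at 8.9 kb and the region 20.4 kb downstream of MYOG were both open in 71 barcodes against 9.76 expected, a ratio of 7.27. The regions 20.4 and 15.9 kb downstream of MYOG had a ratio of 6.11, the MYOD1 regions at 22.0 and 35.0 kb 4.21, and the MYOD1 region at 35.0 kb with the region 17.5 kb upstream of MYF5 4.01 (224 barcodes). Among regions called higher at E28, those 3.3 kb downstream and 39.7 kb upstream of MYOG were exceptions. Their ratios with the MYOG promoter were 1.28 and 1.33, and with each other 1.19. The 3 neighbouring promoters had ratios of 0.99 to 1.16 with the 4 genes.

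**Figure D5:**
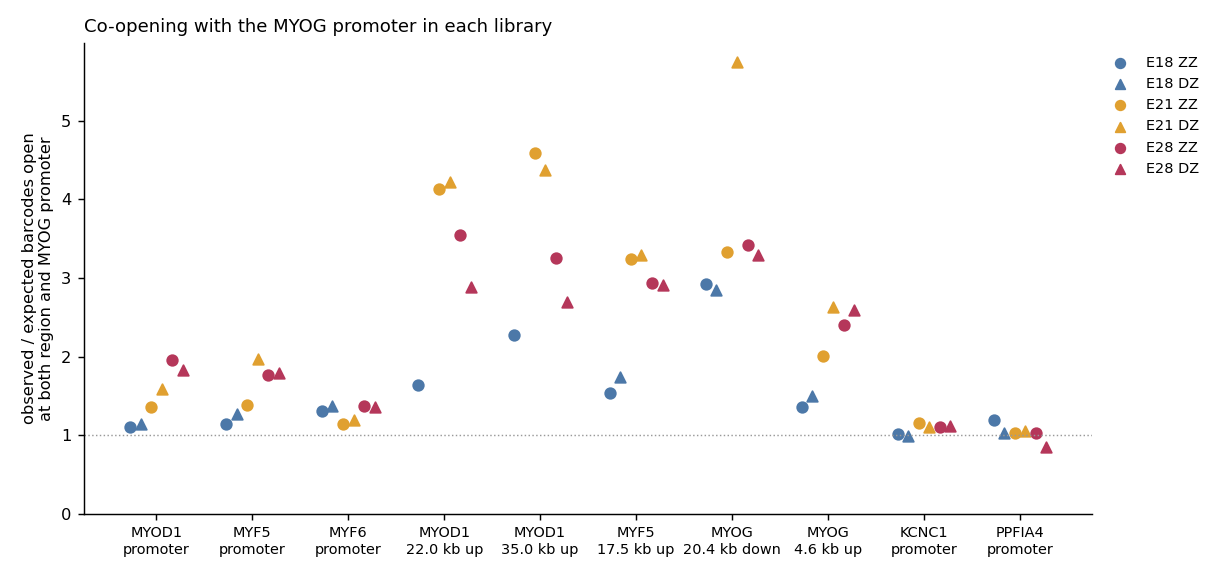
Observed over expected number of barcodes open at both the MYOG promoter and each of 10 regions, in each library (circles for ZZ, triangles for DZ, colours for stage; dotted line, a ratio of 1). The region 20.4 kb downstream of MYOG lies between 2.85 and 5.75 in the 6 libraries, and the KCNC1 and PPFIA4 promoters lie between 0.84 and 1.19.

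Promoters elsewhere in the genome were ranked by the same ratio. With MYOG, the 10 highest ratios among 13559 promoter regions, 2.96 to 3.58, belonged to MAP3K7CL, TTN (titin, the giant spring of the sarcomere), SMYD1 (a muscle methyltransferase), MEF2C, LOC102160043, DDX60, SMTNL1, SYNPO2L (a Z-disc protein), KLHL41 and STAC3 (a part of excitation-contraction coupling). With MYOD1 they were TTN, MAP3K7CL, DDX60, SYNPO2L, SMYD1, MYLPF (fast myosin light chain), LOC110261510, LOC102160043, KLHL31 and MEF2C, at 1.94 to 2.19. With MYF5 they were SMYD1, COX8H, DDX60, MEF2C, FGF13, LOC106505720, MAP3K7CL, TTN, KLHL31 and SYNPO2L, at 1.95 to 2.09. With MYF6 they were STAC3, LOC110255985, DDX60, KLHL41, SYNPO2L, FGF13, MYLPF, COX8H, TRDN (triadin of the sarcoplasmic reticulum) and KLHL31, at 1.5 to 1.71.

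The MYF6 ratios rested on fewer barcodes, 39 to 123 each, than those of MYOG, which rested on 166 to 505. DDX60, an RNA helicase gene of antiviral defence, and SYNPO2L were in all 4 lists. The ratio of MYOG with TTN was 1.39 and 1.75 for E18, 3.91 and 5.36 for E21, and 3.81 and 3.29 for E28, so that both E18 libraries were lowest. That was not so for MAP3K7CL, MEF2C, DDX60 and SYNPO2L, where E18 DZ was above an E28 library. For MEF2C the ratio was 3.78 in E18 DZ, against 2.60 and 3.17 for E28. For the other promoters listed with MYOG, both E18 libraries were lowest.

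Motifs were counted on both strands in 300 bases of each region, at the centre of the bases that the most libraries shared. CAGCTG and CACCTG are forms of CANNTG and were counted within it. An E-box of any form was present in 69 of 78 members (88.5%, against 83.3% of all 294825 regions and 67.8% of 19528 promoters), CAGCTG in 25 (32.1%, against 25.3% and 16.6%) and CACCTG in 16 (20.5%, against 21.2% and 22.5%). MEF3 (TCAGGTT) was present in 9 (11.5%, against 4.99% and 3.91%) and MEF2 in 3 (3.85%, against 3.39% and 2.87%). Of the 29 members with a peak in all 6 libraries, as the tested regions have, 79.3% held an E-box (79.1% of all tested regions), 27.6% CAGCTG (27.1%) and 6.9% MEF3 (4.35%). In 500 bases MEF3 was in 6.9% of these 29 against 7.19% of all tested regions. The median GC content was 56.7% in these 29 members, 52.8% in all 78 and 52.7% in all tested regions.

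Of the 11 members with peaks in both E28 libraries and missing from at least 1 E18 library, all held an E-box and 6 held CAGCTG (54.5%). Of the 24835 regions of the series with the same pattern of peaks, 87.7% held an E-box and 28.7% CAGCTG. Among these are the MYOD1 regions printed above. By contrast, the 300 bases of the region 4.6 kb upstream of MYOG held none of the motifs. That region was called higher at E21 and at E28 than at E18, and in 500 bases it held 2 E-boxes, both CACCTG. A match describes letters and is not a binding site.

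The promoters of 55 other genes of the myogenic network were read in the same fit, of which 51 had a promoter region and 47 were tested. Between E28 and E18, 20 passed (42.6%, against 37.1% of all regions), 17 higher and 3 lower, with a median log2 fold change of 0.25. Without E18 DZ 4 passed, and 8740 of all 78533 regions. Of the upstream regulators, 2 of 9 passed, MEOX1, a homeobox gene of the dermomyotome, rising from 28.2 and 25.5 CPM at E18 to 51.5 and 64.0 CPM at E28, and TBX1 falling from 64.8 and 64.7 to 43.6 and 41.6 CPM. PAX3 (66.2 and 72.6 CPM at E18, 45.8 and 62.9 CPM at E28) and PAX7 (27.4 and 28.2, then 25.0 and 34.5 CPM) did not pass.

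Of the partners of the 4 factors, 4 of 6 were higher at E28 (19% of all tested regions were), namely the E protein genes TCF3 and TCF4 and the MEF2 factor genes MEF2C and MEF2D. MEF2C had 0.738 and 0.902 CPM at E18, 2.36 and 2.41 CPM at E21, and 2.98 and 5.67 CPM at E28 (2.35 ± 0.40 SE on the log2 scale, edgeR adjusted p = 0.0089). Of the inhibitors, 5 of 11 were higher (against the same 19%), ID1, ID2, ID3 and ID4, which sequester E proteins, and MDFI, which binds the factors themselves. Their log2 fold changes were 0.43 to 0.50.

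Of the target genes, 7 of 21 were higher at E28 and 2 were lower, in all 42.9% against 37.1% of all tested regions. The promoters of MYL1 (1.22 and 1.55 CPM at E18) and MYBPH (4.38 and 4.15 CPM at E18) had no peak at E28 and could not be tested. CHRNA1, a subunit of the muscle acetylcholine receptor, had 0.945 and 0.826 CPM at E18, 4.42 and 7.82 CPM at E21, and 12.4 and 24.3 CPM at E28, and it was the one network promoter called in each of the 3 stage contrasts (log2 fold change 4.27 ± 0.38 SE at E28 against E18, edgeR adjusted p = 0.0027). CHRND, CHRNG, MYLPF, TTN, NEB and CDKN1C, a cell cycle inhibitor gene, were also higher, with MYLPF at 0.855 and 0.313 CPM at E18 against 5.26 and 8.29 CPM at E28. ACTA1, skeletal actin, was lower (log2 fold change −0.85 ± 0.17 SE, edgeR adjusted p = 0.015), as was RYR1, the calcium release channel (4.61 and 5.74, then 2.31 and 2.08 CPM). The promoters of DES, CKM, MYMK and CACNA1S were among the 12 that did not pass.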

How the data were processed

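Single-cell ATAC-seq peaks and peak-by-barcode matrices of 6 libraries were used. Per the labels and the methods of the study, the authors aligned reads to Sscrofa11.1 with Ensembl release 98 genes and called peaks in each library with Cell Ranger ATAC 1.2.0. Seurat 3.1.1 and Signac 0.2.2 are named in the submitters' processing notes. The deposited values are raw counts of transposase cut sites per peak and barcode, not normalized. Barcodes with 2000 to 30000 counts were kept, and no doublets were called. Peaks were merged where they overlapped by at least 1 bp, and counts were summed per library. Genes and sequences came from the RefSeq annotation and genome of Sscrofa11.1, and a promoter region was one overlapping the 2000 bp before to 100 bp after a gene start.

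Regions with a peak in all 6 libraries were tested with edgeR 4.0.16 in R 4.3.3 (quasi-likelihood test, TMM, stage and breed as terms, 2 residual degrees of freedom, Benjamini-Hochberg adjustment, threshold 0.05). DESeq2 1.42.0 was an alternative. Other steps used Python 3.11.15, numpy 2.4.6, scipy 1.17.1, pandas 2.3.3 and matplotlib 3.10.9. The fit was tested on simulated data. Precision follows depth, 89816504 to 133037579 counts a library, and intervals cover counting error only.

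The members and gene lists were chosen with earlier results of these data known. Regions were named in full if they were the promoters of the 4 genes, passed a test, were among the 3 other regions most often open in a window, were the 2 regions with the most counts among those with peaks in both libraries of 1 stage alone, or were promoters of other genes in the windows. For each of the 4 promoters the 10 promoters farther than 60 kb away with the highest co-opening ratio and at least 20 barcodes expected were also named. The regions without a peak in E18 libraries were singled out after their values were seen. Alternatives were other scalings and filters, no breed term, covered peak length as an offset, other barcode limits, open barcodes in place of counts, peaks matched at 50% reciprocal overlap, and each library left out.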

Additional observations from a re-analysis of the deposited data

Results flagged for a closer look

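Of the 29 tested members, 8 moved in opposite directions in the breeds between E18 and E28, each on 1 library per stage and breed. The share over all tested regions was not counted, so this count has no background, and several of the values are near 0. At the MYF6 promoter the log2 ratio of E28 to E18 was −0.43 in ZZ and 0.24 in DZ, and the difference was not tested. At the KCNC1 promoter it was 0.14 in ZZ and −0.19 in DZ, and the difference was not tested. At the region 11.7 kb downstream of MYOD1 it was −0.02 in ZZ and 0.16 in DZ, and at the PPFIA4 promoter 0.05 in ZZ and −0.02 in DZ, and neither difference was tested. The other 4 were the regions 57.9 kb downstream of MYF5 (−0.35 in ZZ and 0.86 in DZ), 4.4 kb upstream of MYF6 (−0.25 and 0.88), 32.5 kb upstream of MYOG (−0.06 and 0.72) and 26.3 kb upstream of MYOD1 (−0.21 and 0.08), and none of these differences was tested.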

How the results depend on the processing

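No paired analysis was possible because each combination of stage and breed holds 1 library and no replicate number links libraries; breed is a term of the fit. The cause of the changes below was not tested. Of 9 member regions called between E28 and E18, covered length as an offset gave 20, and leaving out a library gave 2 (without E18 DZ) to 13. Of all tested regions 37.1% were called, 52.2% with the offset, and 8740 (without E18 DZ) to 30864 of 78533 regions with a library left out. Between E21 and E18 the 2 calls became 4 with DESeq2, 6 with the covered length offset, 1 with barcodes of 4000 to 60000 counts, and 0 when all regions were fitted with no peak as 0 (chosen after seeing the data), and 0 to 5 with a library left out. The shares of all regions were 6.59%, 18.1% with DESeq2, 17.6% with the offset, 0% with all regions fitted, and 0% (without either E21 library) to 21.7%. Between E28 and E21 the 1 call became 7 with DESeq2, 17 with the offset, 3 with 50% reciprocal overlap, 0 over all regions, and 0 to 6 with a library left out. The shares of all regions were 7.13%, 19.7% with DESeq2, 32.4% with the offset, 11.6% with reciprocal overlap, 0% with all regions fitted, and 0% (without either E21 library) to 20.6%. Between breeds the count was 0 under every alternative. The 20 network promoters became 33 with the offset, 11 over all regions and 4 to 27 with a library left out. The offset moved the median of all regions between E28 and E18 from −0.02 to 0.43. With it 35956 of all tested regions were called higher and 5020 lower, against 14929 and 14233 in the main fit. The MYOG promoter kept its call in 14 of 15 alternatives and lost it without E18 DZ (1.19, edgeR adjusted p = 0.0561; range with a library left out 1.19 to 1.85). MYF5 passed with the offset (0.42, edgeR adjusted p = 0.0194) and without E28 ZZ (0.59), and turned to −0.0017 without E28 DZ. MYF6 turned to 0.68 with the offset, 0.07 without E18 ZZ and 0.25 without E28 ZZ (lowest −0.44), and MYOD1 to −0.0030 with 50% reciprocal overlap and −0.0049 without E28 DZ (highest 0.23). The region 44.9 kb downstream of MYOG turned to 0.40 with the offset. Calls of single regions were lost in 0 to 7 of 15 alternatives. Peaks matched at 50% reciprocal overlap were not among these 15, either for these regions or for the MYOG promoter. The mean percent of barcodes open was 4.49 for MYF5 (11.7 not thinned, 2.36 thinned to 1000), 1.84 for MYF6 (5.03 and 0.912), 3.95 for MYOD1 (10.6 and 2.01) and 2.25 for MYOG (5.89 and 1.07). Without thinning the E28 over E18 ratio of these shares went from 1.13 to 0.977 for MYF5, 1.05 to 0.861 for MYOD1 and 2.93 to 2.10 for MYOG, and for MYF6 from 0.980 to 0.791 (0.868 thinned to 1000, 1.05 with barcodes of 4000 to 60000 counts). The median co-opening ratio went from 1.29 to 1.74 without depth classes. CAGCTG went from 32.1% to 43.6% of members in 500 bases, against 25.3% and 34.5% of all regions, and from 27.6% to 34.5% of members with a peak in all 6 libraries, against 27.1% and 37.3% of all tested regions.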
